A study of Homo sapiens with 12 samples.

Results

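Open chromatin was compared between KO-52 cells transduced with p42 and KO-52 cells transduced with p30, both kept in DMSO. KO-52 is a line from acute myeloid leukaemia (AML) in which both CEBPA alleles are mutated, and p42 and p30 are the full-length and the N-terminally truncated isoform of the transcription factor C/EBPα. ATAC-seq was made from 50000 nuclei per library, with 2 replicates for p42 and 2 for p30 out of 12 libraries in 6 conditions. The other conditions were the empty vector (EV) in DMSO and all 3 lines after tunicamycin, an inhibitor of N-glycosylation, at 2 µg/mL for 8 h, and they served to follow the regions found here, by whether they were called there and at what height and rank. In the study's methods, KO-52 cells for lasting expression receive the isoforms as ERT2 fusions from a vector and are sorted for GFP, and 4-hydroxytamoxifen, which lets such a fusion enter the nucleus, is described for fusion lines and their EV controls in general. Whether it was given before ATAC-seq is not given in the sources used here. All lines share the mutated CEBPA alleles of KO-52, and the added isoform comes from a vector and not from the native locus.

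The deposited peak lists pool the 2 replicates of a condition, so no value below has a replicate spread, and no difference between the lines could be tested against such a spread. Merging the p42 and the p30 list at an overlap of at least 1 bp, on chromosomes 1 to 22 and X, gave 293107 regions, against 355051 when all 6 lists were merged. Of these, 158590 had a peak in both lists (shared), 90752 only in the p42 list (p42-only, 31% of the merged regions) and 43765 only in the p30 list (p30-only, 14.9%). The p42 list was the deeper one, with an estimated 30000000 tags against 26500000 for p30, an excess of 13%, and it held 254239 peaks against 207679. A region of the same accessibility therefore passes the peak threshold more easily in the p42 list, and a missing peak says only that the region was not called. Cutting both lists to 207005 peaks left 57076 regions exclusive to p42 and 55615 exclusive to p30. Shared regions count once in each list, so lists of equal size give nearly equal exclusive counts by construction. The part of depth in the imbalance was therefore not tested by this cut.

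C/EBPα is a basic leucine zipper (bZIP) protein that binds DNA as a dimer and drives the differentiation of granulocytes and monocytes. p30 keeps the DNA-binding domain and lacks the N-terminal transactivation element that restrains proliferation, and its predominance is typical of CEBPA-mutant AML. bZIP proteins of the C/EBP, FOS, JUN and ATF families bind related palindromes, and C/EBP can pair with AP-1 or ATF proteins on composite sites that join the recognition letters of each partner. In ATAC-seq the Tn5 transposase cuts accessible DNA, so a peak marks a promoter, an enhancer or another site that is free of nucleosomes.

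Most exclusive regions were weak, and the analysis therefore turned on the strong ones, which reached a −log10 q of 10 where they were called and lacked any peak in the opposite list. There were 3511 strong p42-only regions (1.2% of the merged regions) and 484 strong p30-only regions (0.165%). The members just inside this limit had a −log10 q of 10.001 in p42 and 10.000 in p30, and those just outside 9.999 and 9.980. Most strong p42-only regions had no peak in the EV list, and 16.3% of them carried C/EBP-type letters, against 4.15% of all merged regions. Regions near RNASE3, TRIB3, CD36, IL1RN and CEBPB carried such letters, and each of these was also called, with fewer tags, in at least 1 EV list. Most strong p30-only regions had a peak in the EV list, and 37.4% carried AP-1 or RUNX letters, against 13.4% of all merged regions, as near ID2 and HMGA2. Each set was mostly found again in the tunicamycin list of its own line. Shared regions that ranked higher in one line than in the other showed the same letters as the exclusive regions of that line.

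The windows below show letters whose share differed between the sets. Each is 101 bp of hg38, forward strand, centred on the peak summit. They are regions of the named genes with a match within 50 bp of the summit, picked from these for the gene's role, so they illustrate the motif and do not measure how common it is. The CBLB window matched that of a strong p42-only region near PCDH17, not printed here, at 63 of 79 bases aligned without gaps (79.7%). Whether the windows lie in repeated sequence was not tested. For the strong p42-only regions the capitals mark TTGCGCAA, the C/EBP palindrome, or its variant TTGCACAA, or TGTTGCAA, which joins C/EBP letters to AP-1 letters, on either strand.

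CBLB, chr3:106103528-106103628: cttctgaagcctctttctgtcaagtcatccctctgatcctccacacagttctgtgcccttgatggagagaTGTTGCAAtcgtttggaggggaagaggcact
RNASE3, chr14:20904798-20904898: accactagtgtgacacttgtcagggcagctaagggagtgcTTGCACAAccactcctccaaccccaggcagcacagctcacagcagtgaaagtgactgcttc
TRIB3, chr20:371896-371996: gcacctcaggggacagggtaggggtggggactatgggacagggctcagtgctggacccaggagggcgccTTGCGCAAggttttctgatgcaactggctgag
CITED2, chr6:139612184-139612284: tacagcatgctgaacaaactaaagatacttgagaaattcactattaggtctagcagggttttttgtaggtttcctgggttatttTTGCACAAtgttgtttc
CD36, chr7:80634637-80634737: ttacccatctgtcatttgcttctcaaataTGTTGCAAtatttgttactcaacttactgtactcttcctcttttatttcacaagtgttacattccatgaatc
IL1RN, chr2:113111966-113112066: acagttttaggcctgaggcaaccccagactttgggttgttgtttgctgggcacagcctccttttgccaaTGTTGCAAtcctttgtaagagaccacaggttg

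For the strong p30-only regions the capitals mark TGACTCA or its reverse TGAGTCA, the AP-1 site of FOS and JUN dimers.

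ZNRF2, chr7:30308585-30308685: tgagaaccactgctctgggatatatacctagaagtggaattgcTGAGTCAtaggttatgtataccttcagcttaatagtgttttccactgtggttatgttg
ID2, chr2:8512292-8512392: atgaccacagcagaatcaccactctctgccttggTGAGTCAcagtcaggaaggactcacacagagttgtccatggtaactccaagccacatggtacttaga
HMGA2, chr12:65649191-65649291: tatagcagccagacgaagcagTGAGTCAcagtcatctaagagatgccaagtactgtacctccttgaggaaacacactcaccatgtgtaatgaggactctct
ASB3, chr2:53311823-53311923: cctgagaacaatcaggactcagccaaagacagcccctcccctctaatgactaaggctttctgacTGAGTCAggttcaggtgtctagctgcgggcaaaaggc

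Strength decided how unequal the lines looked. At the threshold of the lists, a −log10 q of 1.3, there were 2.07 p42-only regions for each p30-only region. The ratio was 3.16 at a −log10 q of 5, 7.25 at 10 and 17 at 15, where 647 p42-only and 38 p30-only regions were left. At 25 there were 20 against 2. Depth moves this ratio too, because a deeper list gives the same site a higher −log10 q. The tags and background of the p42 peaks were therefore also multiplied by 0.916, which brings the lowest p42 background to that of p30. Then 2391 p42-only regions passed the strong threshold. The 484 strong p30-only regions were not recounted against the scaled p42 list, so this setting corrects the p42 side only. Of any strength, p30-only regions numbered 45057 against the scaled p42 list and 43765 against the unscaled one. The background ratio was 1.09 and the estimated depth ratio 1.13, so this scaling is smaller than the depth excess. A further setting, chosen after seeing the data, took lists of equal size and called the 75000 top-ranked peaks of each strong, which left 1694 against 922. The p42 side had more strong regions under each of these settings, and the size of the excess depended on the setting.

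By place in the genome the exclusive regions lay away from start sites. Promoters, taken as 1000 bp to either side of an annotated start site, held 20.5% of the shared regions (95% Wilson interval 20.3 to 20.7%), 10.2% of the p42-only regions (10 to 10.4%) and 12% of the p30-only regions (11.7 to 12.3%). Among strong regions the share was 9.66% for p42-only (8.72 to 10.7%) and 9.71% for p30-only (7.38 to 12.7%), and these intervals overlap. Introns held 56.7% of the strong p42-only regions and 54.1% of the strong p30-only regions, against 46.3% of the shared regions, and intergenic sequence 29.5% and 32.2%. The median width was 188 bp for strong p42-only, 153 bp for strong p30-only and 236 bp for shared regions. Within 10000 bp of the start of a protein-coding gene lay 33.6% of the strong p42-only regions (32.1 to 35.2%) and 24.8% of the strong p30-only regions (21.2 to 28.8%). The share was 34.7% over all merged regions and 39.4% over shared regions. Strong p42-only regions were thus near the share of all merged regions, and strong p30-only regions were below it. All such intervals count regions and cover neither library nor biological variation.

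At promoters of protein-coding genes there were 209 strong p42-only regions, at 207 genes, and 26 strong p30-only regions, at 26 genes. A region at a start of MAST2, a microtubule-associated kinase, had 26 tags in p42 and 17 in p42 after tunicamycin, and no peak in any p30 or EV list. SEMA4D, a semaphorin of immune cells, had a p42-only promoter region with 22 tags and a C/EBP match. At MMP9, the gelatinase of neutrophil granules, a region 155 bp from the start had 31 tags in p42 and an AP-1 match. It was called in EV with 12 tags and in p30 after tunicamycin with 16, so only the p30 list in DMSO lacked it. On the p30 side the strongest promoter regions were those of PRKAB1, the beta subunit of the AMP-activated kinase, with 18 tags in p30 and 14 in EV, and SPACA9, with 25 in p30 and 12 in EV and an AP-1 match. A promoter of PPARG, a nuclear receptor of lipid metabolism, had 13 tags in p30 and 8 in p30 after tunicamycin, and no peak in p42 or EV.

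The 10 p42-only regions with the highest −log10 q held 26 to 33 tags at the summit, with a −log10 q of 26.6 to 34.9. All 10 were called again in p42 cells after tunicamycin, 6 of 10 were called in EV cells and 6 of 10 in p30 cells after tunicamycin. BLZF1, which encodes a Golgi protein, had an intronic region (chr1:169392349-169392776) with a composite match, 30 tags in p42, 15 in p42 after tunicamycin and no peak in the remaining 4 lists. GRPEL1, a partner of the mitochondrial HSP70 chaperone, had an exonic region with 31 tags in p42, 21 in p42 after tunicamycin and 5 in EV after tunicamycin. CBLB, an E3 ubiquitin ligase of immune signalling, was nearest to an intergenic region 234104 bp away with 26 tags in p42 and 25 in p42 after tunicamycin. In the EV list that region had 7 tags. SERPINB13, a serpin, had an intronic region with a C/EBP match, 30 tags in p42, 25 in p42 after tunicamycin, 6 in EV and no peak in either p30 list. PLCL1, related to phospholipase C, had an intronic region with 26 tags in p42, 22 in p42 after tunicamycin and 5 in p30 after tunicamycin. MED12L, a paralogue of a Mediator subunit, DLEC1 and ZSCAN1 had 27, 27 and 32 tags in p42 and 6 to 9 in EV. That p42 was above p30 in DMSO follows from the choice of these regions. In the lists not used for that choice, p42 after tunicamycin was above p30 after tunicamycin and both EV lists in all 10.

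The 10 p30-only regions with the highest −log10 q held 20 to 35 tags, with a −log10 q of 20.5 to 25.8. All 10 were called in EV cells and in p30 cells after tunicamycin, and 8 of 10 were called in p42 cells after tunicamycin. The strongest, 6236 bp from a start of ANKRD10, had 35 tags in p30, 21 in EV, 28 in p30 after tunicamycin, 27 in EV after tunicamycin and 15 in p42 after tunicamycin. FAF1, a ubiquitin-binding protein, had an intronic region with 23 tags in p30, 15 in EV and 7 in p42 after tunicamycin. EMCN, which encodes the sialoglycoprotein endomucin, had an intronic region with an AP-1 match, 21 tags in p30, 16 in EV and no peak in either p42 list. IL12RB2, a subunit of the interleukin-12 receptor, was nearest to an intergenic region with an AP-1 and a RUNX match, 21 tags in p30, 18 in EV and no peak in either p42 list. ZNRF2, an E3 ubiquitin ligase, had 21 tags in p30, 14 in EV, 21 in p30 after tunicamycin and 8 in p42 after tunicamycin. That p42 was below p30 in DMSO follows from the choice of these regions. In the lists not used for that choice, p42 after tunicamycin was below p30 after tunicamycin and both EV lists in all 10.

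**Figure D1:**
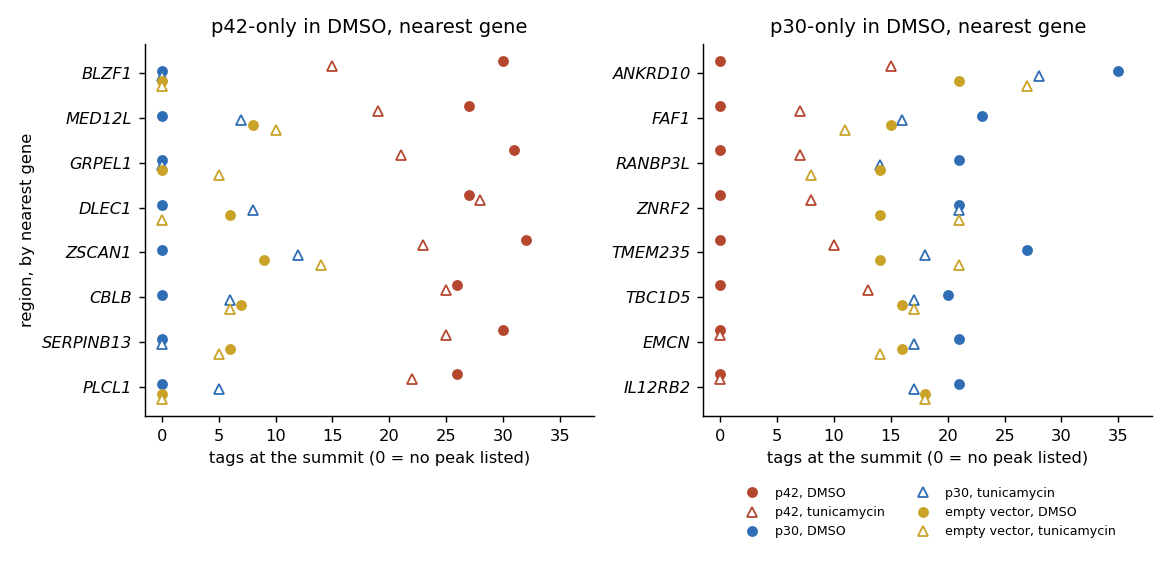
Tags at the summit in each of the 6 lists for 8 of the 10 strongest p42-only (left) and 8 of the 10 strongest p30-only regions (right), by nearest gene; a mark at 0 means that the list has no peak there. On the left the p42 marks (26 to 32 in DMSO) lie above the EV and p30 marks, and on the right the p30 and EV marks lie above those of p42. The order of p42 and p30 in DMSO follows from how the regions were chosen.

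The lists not used to define the regions gave the same picture over the full sets. After tunicamycin the p42 list held 92% of the strong p42-only regions (91.1 to 92.8%). The share was 28.4% (26.9 to 29.9%) in p30 cells after tunicamycin, 30.2% (28.7 to 31.7%) in EV cells in DMSO and 30.1% (28.6 to 31.6%) in EV cells after tunicamycin. Of the strong p30-only regions, 90.5% (87.6 to 92.8%) had a peak in p30 cells after tunicamycin, 57.4% (53 to 61.8%) in p42 cells after tunicamycin, 90.5% (87.6 to 92.8%) in EV cells in DMSO and 91.9% (89.2 to 94%) in EV cells after tunicamycin. Over all merged regions the shares were 61.6% in p42 and 54.6% in p30 cells after tunicamycin, and 55.8% and 56.4% in EV cells in DMSO and after tunicamycin. Shared regions, with a median −log10 q of 10.7 in p42 and 9.25 in p30, are nearer in strength to the strong sets. They were called in 88.5% in p42 and 84.6% in p30 cells after tunicamycin, and in 85.9% and 86.1% in EV cells. The 57.4% of strong p30-only regions called in p42 cells was thus near the share of all regions and below that of shared regions. The 92% and 90.5% called again in the own line were near the shares of shared regions. The EV list in DMSO was the shallowest of the 6, at 22200000 tags. Both strong sets were therefore called again in the line that defined them, while strong p30-only regions mostly had an EV peak and strong p42-only regions mostly had none. In 2281 strong p42-only regions (65%) the peak after tunicamycin was in the p42 list and not in the p30 list, and the reverse held for 47 (1.34%). For the strong p30-only regions the same pattern, own line and not the other, held for 175 (36.2%) and the reverse for 15 (3.1%). Where both tunicamycin lists had a peak, the p42 list had more tags in 770 of 949 strong p42-only regions (81.1%), and the p30 list had more in 206 of 263 strong p30-only regions (78.3%), although the p42 tunicamycin list was the deeper (25400000 against 23100000 tags). Over all exclusive regions, weak ones included, recurrence was lower: 34.2% of p42-only regions were called again in p42 cells and 29.8% of p30-only regions in p30 cells.

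The letters under the summits differed in frequency between the sets, although most regions of either strong set lacked the letters that were more frequent in it. Matches were exact, on either strand, within 100 bp of the summit. For shared regions, those higher in p30 included, this was the summit of the p42 peak. The C/EBP site (TTGCGCAA, or TTGCACAA and its reverse TTGTGCAA, called CEBP here) was found in 280 of 3511 strong p42-only regions, 7.97% (95% Wilson interval 7.12 to 8.92%), and in 1 of 484 strong p30-only regions, 0.207% (0.0365 to 1.16%). Shared regions held it in 1.23% and all merged regions in 1.72%. The composite TGTTGCAA was found in 4.84% of strong p42-only regions (4.18 to 5.6%) and in 0 of 484 strong p30-only regions (upper limit 0.787%), against 1.26% of all merged regions. TGATGCAA, the C/EBP and ATF composite read by ATF4, stood at 4.16% (3.55 to 4.87%) and 0.62% (0.211 to 1.81%), against 1.24% of all merged regions. At least 1 of these 3 was present in 16.3% of strong p42-only regions, 3.04% of shared and 0.826% of strong p30-only regions. All 3 hold the letters GCAA on at least 1 strand, so their matches can overlap. TGACTCA of AP-1 went the other way, at 7.15% of strong p42-only regions (6.34 to 8.05%) and 25.2% of strong p30-only regions (21.5 to 29.3%), against 9.12% of all merged regions. TGTGGTTT of RUNX stood at 3.93% (3.34 to 4.63%) and 13.6% (10.9 to 17%), against 4.63%. Only 7 strong p30-only regions held AP-1 and RUNX letters together, and 181 (37.4%) held either. GAGGAAGT of PU.1, the ETS factor of myeloid cells, stood at 6.61% and 3.93%, with overlapping intervals (5.83 to 7.48% and 2.53 to 6.05%). The median GC content of the windows was 44.3% in both strong sets. Away from promoters the CEBP share was 8.01% in strong p42-only and the AP-1 share 26.5% in strong p30-only regions, and the order of the sets was the same.

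These shares were higher in stronger peaks. Among p42-only regions the CEBP share was 2.31% at a −log10 q below 3, 2.77% from 3 to 5, 4.15% from 5 to 10, 7.44% from 10 to 15 and 10.4% at 15 and above. Among shared regions sorted by the same p42 values it did not exceed 1.49%. The AP-1 share of p30-only regions was 10.4%, 11.8%, 15.6%, 24.9% and 28.9% over the same steps, the last of them from 38 regions, and that of p42-only regions stayed between 6.67% and 7.57%. The CEBP match nearest to the summit lay a median of 38.5 bp away in strong p42-only regions, with 37.9% within 25 bp. For AP-1 in strong p30-only regions the median was 22 bp, with 61.5% within 25 bp. A match is a run of letters and was not shown to be bound.

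The EV list divided the strong regions further. Strong p42-only regions without an EV peak (2451) held CEBP in 8.98% (7.91 to 10.2%) and AP-1 in 6.16% (5.28 to 7.18%), and those with one (1060) held CEBP in 5.66% (4.42 to 7.22%) and AP-1 in 9.43% (7.82 to 11.3%). Strong p30-only regions with an EV peak (438) held AP-1 in 26.9% (23 to 31.3%). The 46 without an EV peak held it in 4 cases, 8.7% (3.43 to 20.3%), and CEBP in 0, for which 46 regions allow up to 7.71%. AP-1 letters were thus more frequent in the strong p30-only regions called in EV than in the few not called there. The share of the latter was near the 9.12% of all merged regions.

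Strong p42-only regions were spread over many genes and rarely adjacent. Each region was assigned to the protein-coding gene with the nearest start site, and 18686 genes had at least 1 merged region. Of these, 2810 genes (15%) had a strong p42-only region, 525 had at least 2 and 125 (0.669%) at least 3. For strong p30-only regions the numbers were 457 genes (2.45%), 24 and 3 (0.0161%). Only 3.25% of strong p42-only regions lay within 10000 bp of another, and 15.7% within 50000 bp. For strong p30-only regions these shares were 0.826% and 3.72%. Such shares depend on the size of the set, 3511 against 484 regions. A strong p42-only region lay within 10000 bp of 2.89% and within 50000 bp of 16.1% of the strong p30-only regions, near the values among strong p42-only regions. Genes with many strong regions had many regions of every kind, with a median of 86 merged regions in the 125 genes against 8 over all genes.

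FHIT, which encodes a diadenosine triphosphatase and spans a common fragile site, had the most strong p42-only regions, with 8 of its 185 regions and no strong p30-only region. TBC1D5, a Rab GTPase-activating protein of the retromer pathway, had 7 strong p42-only and 2 strong p30-only among 126 regions, so both directions met in its introns. RBM26, an RNA-binding protein, followed with 6 of 88. CITED2, a CBP/p300-binding transcriptional regulator, PCDH17, a protocadherin, AUTS2 and SLITRK5 had 5 each, of 151, 178, 251 and 461 regions, and AUTS2 and SLITRK5 also had 1 and 2 strong p30-only regions. The 5 at CITED2 lay 223531 to 1007870 bp from its start site and had 12 to 20 tags in p42, and all 5 were called again in p42 cells after tunicamycin. Among the 12 genes with the most strong p42-only regions, the highest share was that of RNASEH2B, a subunit of ribonuclease H2, with 4 strong p42-only among 35 regions, 2 of them side by side at a promoter (chr13:50934318-50934675 and chr13:50934842-50935208) with 21 and 22 tags in p42, 13 and 13 in p42 after tunicamycin, and no peak in any other list. APBB1IP, an adaptor of integrin activation in leukocytes, had 4 of 57. FNDC3A, GSDMC and TRPS1 had 4 each, of 66, 136 and 250. Of the 12 genes with the most strong p42-only regions, 5 lie on chromosome 13 and 2 on chromosome 8, the chromosomes with the most merged regions per Mb (144 and 131, against 96.7 over all). The strong p42-only regions were not denser among the regions there, at 10.5 and 11.8 per 1000 against 9.93 to 15.6 over the 23 chromosomes, and the part of copy number in the counts per gene was not tested.

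On the p30 side ARID2, a subunit of the PBAF chromatin remodeller, ASB3 and SLC39A10, a zinc transporter, had 3 strong p30-only regions each, of 40, 83 and 164. ARID2 also had 1 strong p42-only region and SLC39A10 had 2. The 3 at ARID2 had 12, 14 and 15 tags in p30, 8 to 13 in EV and 5 to 10 in p42 after tunicamycin. Those at ASB3 had 13 or 14 tags in p30, 8 to 10 in EV and no peak in either p42 list. SNX9, a sorting nexin of endocytosis, and PCNX2 had 2 each.

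Genes were then read by role, from 15 lists of 178 genes. Of these, 176 had a merged region, 34 (19.1%) had a strong p42-only region and 6 (3.37%) a strong p30-only region, against 15% and 2.45% over all genes, the background. Genes with more regions have more chances of a strong one, and genes with a strong p42-only region had a median of 24 regions, against 8 over all genes. The listed genes held 2401 shared, 1200 p42-only (50 strong) and 612 p30-only (6 strong) regions. Over all merged regions the strong shares were 1.2% and 0.165%. The shares per gene are therefore not read as an enrichment. Nothing here measures expression, and the nearest gene need not be the target of a distal region.

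Among the C/EBP genes, CEBPB, a family member induced in inflammation and emergency granulopoiesis, had 2 strong p42-only regions. They lay 30827 and 93246 bp from its start with 17 tags each in p42, and 9 and 15 in p42 after tunicamycin, and the distal one (chr20:50283918-50284234) had a CEBP match and 8 tags in EV. The nearer one had no peak in either EV list and 5 tags in p30 after tunicamycin. CEBPB also had 5 shared regions that ranked higher in p42 and none that ranked higher in p30, of 29 shared. The strongest of the 5 (chr20:50179313-50179632) had 30 tags in p42, 15 in p30 and 18 in EV. CEBPA itself had 13 shared, 1 p42-only and 3 p30-only regions, none strong and none shifted. Its promoter region (chr19:33302234-33303211) had 43 tags in p42, 44 in p30 and 39 in EV, and its rank differed by -8.03 percentile points.

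Of 12 myeloid transcription factor genes, 5 had a strong p42-only and 2 a strong p30-only region. MITF, the factor of melanocytes, mast cells and osteoclasts, had 4 strong p42-only regions with 13 to 16 tags in p42 and 6 to 9 in p42 after tunicamycin. None of the 4 was called in a p30 list, and 1 was called in EV. IKZF1, a regulator of lymphoid and myeloid fate, had 2, with 16 and 21 tags. RUNX1 and EGR2 had 1 each, with 12 and 13 tags. ID2, an inhibitor of basic helix-loop-helix factors, had a strong p30-only region with 25 tags in p30, 22 in EV and 12 in p42 after tunicamycin. The ID2 window with its AP-1 letters is shown above.

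Of 18 granule genes, 2 had a strong p42-only region and none a strong p30-only region. RNASE3, the eosinophil cationic protein, had 3 of its 14 regions strong p42-only, with 15, 21 and 13 tags in p42 and 7, 11 and 12 in p42 after tunicamycin. Of these, 2 held a CEBP match, and 1 of the 3 was called in a p30 list, with 7 tags after tunicamycin. MMP9 was the other. Of 16 monocyte surface and recognition genes 4 had strong p42-only regions. CD36, a scavenger receptor, CLEC4E, a receptor for mycobacterial glycolipid, and VCAN, a proteoglycan of monocytes, had 2 each, and FCGR1A, the high-affinity IgG receptor, had 1. The CD36 region with the composite match had 13 tags in p42, 13 in p42 after tunicamycin, 11 in EV and 7 in p30 after tunicamycin. The CLEC4E region at the promoter had 14 tags in p42 and no peak in any other list. Among the shared regions of this list 30 of 163 (18.4%) ranked higher in p42 and 9 (5.52%) in p30, against 8.61% and 8.64% over all shared regions. Of 12 growth factor receptors, CSF2RB, the common beta chain of the GM-CSF, IL-3 and IL-5 receptors, and IL1RL1, the IL-33 receptor, had 1 strong p42-only region each, with 19 and 14 tags. None of the 3 calgranulin genes had a strong region.

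Among 18 stem and leukaemia genes 4 had strong p42-only and 2 strong p30-only regions. NT5E, which encodes the ectonucleotidase CD73, and BCL11A, a repressor in blood and brain, had 3 strong p42-only each, ERG, an ETS factor of stem cells, had 2 and MSI2, an RNA-binding protein of stem cells, had 1. The stronger ERG region held a composite match and had 22 tags in p42, 9 in p42 after tunicamycin and no peak in p30 or in EV in DMSO. The weaker ERG region had 19 tags in p42, 9 in EV and 9 in p30 after tunicamycin, and no peak in p42 after tunicamycin. LMO2 and HMGA2 had a strong p30-only region each, with 14 and 12 tags in p30 and 8 in EV. Among 16 cell cycle and E2F genes E2F2, CCNE1 and CDK6 had 1 strong p42-only region and MYC 2. Of the shared regions of this list, 42 of 321 (13.1%) ranked higher in p30 and 22 (6.85%) higher in p42, and MYC gave 19 and 10 of these. Over all shared regions the shares were 8.64% and 8.61%. The myeloid transcription factor list leaned the same way, at 11.6% and 7.73%, so the lean was not particular to cell cycle genes. The E2F2 region held a composite match and had 21 tags in p42, 19 in p42 after tunicamycin and no peak in any other list. The CCNE1 region was not called again in p42 cells after tunicamycin. It had 12 tags in p42, 6 in EV and 9 in p30 after tunicamycin.

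At stress and inflammation genes the share with a strong p42-only region ranged from 0% to 20% by list, against 15% of all genes. None of the 4 FOS and 3 JUN genes had a strong region in either direction, and at the FOS genes 4 of 53 shared regions ranked higher in p42 and 4 in p30, at the JUN genes 4 and 3 of 52. Of 10 ATF and BATF genes, ATF6, a sensor of unfolded protein in the endoplasmic reticulum, and JDP2, a repressor of AP-1, had 1 strong p42-only region, with 16 and 15 tags in p42. Among 20 stress response genes (unfolded protein and integrated), ATF6 and TRIB3, a pseudokinase induced by ATF4, had a strong p42-only region. The TRIB3 region, in an intron, held a CEBP and an ATF4 match and had 18 tags in p42, 21 in p42 after tunicamycin, 7 in EV and 9 in p30 after tunicamycin. Of 24 inflammatory mediators, CXCL10, LIF, IL1RN and TNFAIP3 had 1 strong p42-only region each. At IL1RN, the interleukin-1 receptor antagonist, it held 17 tags in p42 and 16 in p42 after tunicamycin, 10 in p30 after tunicamycin and no peak in EV in DMSO. At TNFAIP3, an inhibitor of NF-kB, EV cells had 16 tags against 17 in p42, so the p30 list alone lacked that region in DMSO. Of 11 NF-kB genes, TNFAIP3 and NFKBIZ had a strong p42-only region and NFKBIZ, an atypical inhibitor, also a strong p30-only region. Of 11 lipid metabolism genes, PPARG, LPL, CD36, SCD and ACSL1 (5) had a strong p42-only region and PPARG also a strong p30-only region.

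The shared regions were compared by rank, as the percentile of their −log10 p among shared regions in each list, since heights are not normalised between lists. The difference, p42 minus p30, had a median of -0.1 and an SD of 18.6 percentile points. A total of 13648 shared regions (8.61%) ranked at least 25 points higher in p42 and 13704 (8.64%) at least 25 points higher in p30. The near equality of these counts follows from ranking within the shared set. When the rank was taken among all peaks of a list, 20318 were higher in p42 and 8330 in p30. Both groups lay at promoters less often than shared regions did (11.9% and 12.5%, against 20.5%). CEBP letters were in 3.03% of the regions higher in p42 (2.76 to 3.33%) and 0.489% of those higher in p30 (0.385 to 0.62%). AP-1 letters were in 7.61% (7.18 to 8.07%) and 17.3% (16.6 to 17.9%), and RUNX letters in 3.97% (3.66 to 4.31%) and 8.99% (8.52 to 9.48%).

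Among shared regions that were strong in a list, with a percentile of at least 90, the largest move to p42 was an intronic region 775555 bp from a start of TECRL, with 36 tags in p42, 5 in p30 and no peak in EV. FBXW7, a substrate receptor of the SCF ubiquitin ligase, followed with 28 tags in p42, 4 in p30 and 9 in EV. DOCK8, a guanine nucleotide exchange factor of leukocytes, had 27 in p42, 5 in p30 and no peak in EV, and a promoter region of ADGRV1 had 27, 5 and 5. MED13L, a Mediator subunit, TPT1, FOXN2 and R3HCC1L completed the 8. In 8 of 8 the EV value was nearer to p30 than to p42 or absent. The largest move to p30 was an intronic region of CCDC170 with 31 tags in p30, 6 in p42 and 17 in EV. SLC1A2, a glutamate transporter, had an intronic region with an AP-1 match and 27 tags in p30, 6 in p42 and 19 in EV. PSTPIP1, a cytoskeletal adaptor of leukocytes, had 38 in p30, 11 in p42 and 12 in EV, so EV was next to p42 there. At a promoter of TTC17 the values were 31, 8 and 31. PPM1B, DACH1, BICDL1 and RND3 had 26 to 32 tags in p30, 9 or 10 in p42 and 17 to 24 in EV, and 3 of these 4 held an AP-1 match.

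The EV and tunicamycin lists were not used in this ranking. Among shared regions also called in EV, those higher in p42 had a median percentile of 53 in p42, 27.2 in EV and 14.2 in p30. Those higher in p30 had 14.6 in p42, 42 in EV and 51 in p30. In both groups the EV median was nearer to p30 than to p42. The EV peak was present in 91% of regions higher in p30 (90.5 to 91.4%) and 78.4% of those higher in p42 (77.7 to 79%), against 86.1% of the regions in neither group (86 to 86.3%). After tunicamycin, the regions higher in p42 kept a median difference of 13.9 points towards p42 (9957 regions called in both lists, 74.8% of them above 0). Those higher in p30 had a median of -15.9 points (10823 regions, 78.1% below 0), and the rest a median of -0.1 (105105 regions). Across the 125885 shared regions called in both tunicamycin lists, the differences in DMSO and after tunicamycin had a Pearson r of 0.42 and a Spearman rho of 0.40, as a description, since regions of the same 4 lists share depth and library and are not independent.

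Some genes had shifts over many regions. Of the 5007 genes with at least 10 shared regions, SRRM4, a neural splicing factor, had the largest median difference towards p42, at 23.5 points over 10 shared regions, followed by LIFR, the receptor of leukaemia inhibitory factor, at 22.9. Towards p30, SPATA31D1 had -23.6 points over 11 regions, PIK3CG, the phosphoinositide 3-kinase gamma of leukocytes, -21.8 over 12, and RNF213 -20.4 over 12. These genes were chosen after their values were seen. Among larger loci also chosen in this way, RUNX1 had 17 of 97 shared regions higher in p30 and 5 higher in p42, with a median of -6.1 points. ZNF608 had 22 of 79 higher in p30 and 8 in p42, and ZFPM2, a GATA cofactor, 22 of 106 and 7. CEBPB stood on the other side, with 5 of 29 higher in p42 and 0 in p30.

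The labelled cell type could be checked only loosely. All 10 myeloid and all 6 progenitor marker genes had a promoter peak in the p42, p30 and EV lists, and 5 of 6 erythroid markers, GATA1, KLF1, HBB and ALAS2 among them, had none in any of them. Promoters of the T cell markers (6 of 6) and epithelial markers (5 of 5) also had peaks in the p42 and p30 lists, so a promoter peak did not separate lineages. The marker sets did not differ between the p42 and p30 lists.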

How the data were processed

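According to the submitters' processing notes and the methods, the authors used Trim Galore 0.6.6 for trimming, Bowtie2 2.4.4 for alignment (hg38), Picard for duplicates and MACS2 for peaks. Each list pools 2 replicates. Whether read ends were moved to the Tn5 cut, which would displace summits by a few bp, and whether mitochondrial reads were filtered is not given in the sources used here. The deposited fold enrichment is a ratio of summit pileup to local background within a list. Both −log10 columns, p and q, were deposited by the authors against that background and are not normalised between lists.

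Fold and −log10 p were solved for the whole number of tags at each summit, which succeeded for 100% of peaks within 0.0002 in −log10 p. Depth was the lowest background times 2700000000 bp (the genome) over the width of the shortest peak, 22200000 to 30000000 tags per list. Tags are given as listed, without scaling for depth. Peaks on chromosomes 1 to 22 and X were merged, and 0.301 to 0.325% were left out by this. Places and genes come from GENCODE release 44, by region midpoint, and sequences from hg38. The last peak lay within the chromosome for 23 of 23. No test between the lines was run, because pooled lists have no replicate spread. Wilson intervals (95%) cover the counting of regions only. Tag solving, merging and motif search were tested on simulated data. Members, gene lists and motifs were chosen with earlier results of these data known.

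Genes named are those nearest to the 10 strongest regions of each class, the 12 and 6 genes with the most strong regions, the 8 largest moves each way, listed genes with a strong region, and CEBPA. Genes of strong promoter regions and of median rank differences, and ZNF608 and ZFPM2, lie outside this rule and were chosen after their values were seen. Not all genes are described, and some items are not reported here. Alternatives were stricter q, equal list sizes, scaled background, 50% overlap, other promoter widths, motif windows, rank measures and gene assignments. Python 3.11.15 with pandas 2.3.3, scipy 1.17.1 and pysam 0.24.0, and samtools 1.23.1 were used.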

Additional observations from a re-analysis of the deposited data

Results flagged for a closer look

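The ERT2 part of the constructs is made from the ligand-binding domain of the oestrogen receptor gene ESR1, so tags over its coding exons are a signal outside the regions compared above. A peak with its summit inside coding exon 4 of ESR1 (chr6:151944173-151944508) was listed in both p42 lists, with 7 tags in DMSO and 12 after tunicamycin, and in none of the p30 or EV lists. Coding exon 5 had a peak of 5 tags in the p42 list in DMSO and of 4 tags in the p30 list after tunicamycin, and none in EV. No list had a peak over coding exons 6, 7 and 8, which belong to the same domain. Coding exon 1, outside that domain, had a peak of 7 tags in the p42 list in DMSO and of 6 tags in EV after tunicamycin. The p30 list in DMSO had no peak over coding exon 4 or 5, which is a missing call at low counts and not evidence that the construct is absent. Whether these tags come from the construct was not tested.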

How the results depend on the processing

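No paired analysis was possible because each deposited list pools its 2 replicates, and no replicate could be left out for the same reason. Of 94 alternatives, 35 left a value within its interval, or within 1.5 times for a count. With both lists limited to a −log10 q of 3 or more, 34.1% of p42 regions had no p30 peak and 19.6% the reverse. At 10 there were 23343 p42-only, 10323 p30-only and 64895 shared regions (26.5% and 13.7%). With equal list sizes there were 57076 p42-only regions (28% and 27.5%). With p42 scaled to the p30 background the shares were 35% and 22.3%, and with a 50% overlap 37.7% and 23.3%. Strong regions numbered 23787 and 7536 at a −log10 q of 5, 102 and 10 at 20, and 1694 and 922 by rank in lists of equal size, which was chosen after seeing the data. There the CEBP share of p42-only regions was 8.97%. Promoter shares of p42-only, p30-only and shared regions were 6.15%, 7.07% and 15.7% at 500 bp, 18.9%, 20.7% and 29.6% at 2500 bp, and 6.81%, 8.17% and 15.8% at protein-coding starts. With a −log10 q of at least 3 they were 12.4% for p30-only and 21.4% for shared regions. The CEBP share of strong p42-only regions was 4.24% within 50 bp, 9.23% within 200 bp and 3.14% in all p42-only regions, and that of strong p30-only regions 0% within 50 bp. The AP-1 share of strong p42-only regions was 4.44% within 50 bp and 10.6% within 200 bp, and that of strong p30-only regions 20.2% within 50 bp and 12% in all p30-only regions. Shared regions higher in p42 and in p30 numbered 29192 and 28361 at 15 points, 3768 and 3367 at 40 points, and 8330 were higher in p30 by rank among all peaks. Genes with several strong p42-only regions numbered 28 among all gene types, 525 with at least 2, 7 with at least 5 and 60 within 100000 bp. For p30-only they were 24 with at least 2, 0 with at least 5 and 1 within 100000 bp. Over all regions of a class, 34.2% (p42) and 14.1% (p30) of p42-only and 29.8% (p30) and 20.8% (p42) of p30-only regions were called after tunicamycin. At a −log10 q of 3 in the tunicamycin list, strong p42-only regions were called in 87.4% (p42) and 21.7% (p30), and strong p30-only regions in 49.6% (p42). In each motif setting the CEBP share was higher in p42-only and the AP-1 share in p30-only regions. Depth sets which weak regions can be called, and no list can show that a site is closed.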
